A study of Mus musculus with 15 samples.

Results

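Islets that carried human calpastatin in addition to human islet amyloid polypeptide were compared with islets that carried human islet amyloid polypeptide alone. The comparison used 6 of the 15 libraries of the series, chosen by the transgenes named in the sample labels, with 3 libraries a group. The hIAPP_hCAST mice carried human IAPP under the insulin II promoter and human CAST under an insulin promoter. The hIAPP mice carried human IAPP under the insulin II promoter, so that human IAPP was present in both groups. The mice were of strain FVB/NJ and 9 to 10 weeks old, and RNA came from whole islets in bulk. The hCAST group (human CAST without human IAPP), the WT group, and rIAPP mice with rodent IAPP under the insulin II promoter, with 3 libraries each, entered the same fit and supply the values set beside the comparison. Both promoters are active in beta cells, and the transgene product was not measured here. The labels do not say whether a library is 1 animal or a pool, so p-values measure the spread between these libraries, which may be technical.

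Islet amyloid polypeptide (amylin) is a hormone that beta cells store and release together with insulin. The human form can misfold into oligomers and amyloid, whereas the rodent form does not aggregate readily. Aggregated human IAPP is known to raise calcium in beta cells and thereby to activate calpains, calcium-dependent proteases that cut cytoskeletal and signalling proteins. Calpastatin, the product of CAST, is the endogenous inhibitor of the classical calpains, and it acts on the enzymes rather than on their transcripts. Islets also hold endothelial cells, pericytes and stellate cells that make matrix, and resident macrophages, which take up amyloid and cell debris. The question of the comparison is which transcripts of any of these cells differ when the calpain inhibitor is present alongside human IAPP.

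Of 15460 tested genes, 72 differed between hIAPP_hCAST and hIAPP islets, which is 0.466% of the tested genes. Of these, 14 were higher and 58 lower in hIAPP_hCAST (edgeR quasi-likelihood test, Benjamini-Hochberg adjusted p below 0.05). An unadjusted p below 0.05 was found for 1743 genes (11.3%). The lower genes included matrix, mural-cell and macrophage genes. Of the 58, 8 were members of a list examined here, as were 470 of the 15460 tested genes. The number of calls depends on the libraries in the fit: with the 6 compared libraries alone 2 genes passed (Tram1l1 and 1700006A11Rik). In that fit 71 of the 72 had a value and kept their sign at an unadjusted p below 0.05. The 72 were picked on the difference between these same libraries, so this is no separate support. Leaving out 1 library gave 18 (without hIAPP 2) to 175 calls (without hIAPP_hCAST 2). The beta-cell hormone genes and the calpains themselves did not pass the test. Values are CPM, counts scaled to library size with TMM factors, and libraries are named by group and replicate number, where the numbers follow accession order and are not used to pair libraries.

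The 6 libraries held 35510664 to 40191501 counts. The library hIAPP_hCAST 3 stood apart from hIAPP_hCAST 1 and 2. Across genes, which are not independent replicates, it correlated with them at 0.986 and 0.981 on the log2 scale, against 0.993 between those libraries and 0.992 to 0.995 within hIAPP. Genes of acinar cells, the exocrine cells around islets, took 8.48%, 16.6% and 1.33% of the counts outside ribosomal-rich genes in hIAPP_hCAST 1, 2 and 3, against 8.75%, 16.0% and 8.23% in hIAPP 1, 2 and 3. The insulin genes took 11.6%, 8.92% and 12% in hIAPP_hCAST, against 11.8%, 9.90% and 10.7% in hIAPP. Lars2, Mir6236 and Rn45s, here called ribosomal-rich genes, together took 0.322% to 0.470% of all counts in hIAPP_hCAST and 0.351% to 7.63% in hIAPP, the highest share being in hIAPP 2. Without hIAPP_hCAST 3, 79 genes were called, 29 higher and 50 lower, and 49 of the 72 were among them.

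The promoters of 4 of the 72 genes are shown as examples, and no result depends on their sequence. Tram1l1 had the smallest adjusted p, and Gpnmb had the largest fall among the macrophage genes that passed. Ecm1 and Sdc1 had among the smallest p in the test of whether the calpastatin difference depends on human IAPP, which neither passed. Each runs 5′ to 3′ on the gene's strand, from 250 bases before to 50 bases after the RefSeq start in GRCm38.p6. Tram1l1 lies at chr3:124320787-124321086 on the plus strand, Ecm1 at chr3:95739520-95739819 on the minus strand, Sdc1 at chr12:8771146-8771445 on the plus strand, and Gpnmb at chr6:49036268-49036567 on the plus strand. Capitals mark matches, on either strand, to the searched letters. The TATA box was spelled TATAAA, and the CCAAT box has its letters as its name. The AP-1 motif was spelled TGANTCA. The GC box was spelled GGGCGG.
Tram1l1: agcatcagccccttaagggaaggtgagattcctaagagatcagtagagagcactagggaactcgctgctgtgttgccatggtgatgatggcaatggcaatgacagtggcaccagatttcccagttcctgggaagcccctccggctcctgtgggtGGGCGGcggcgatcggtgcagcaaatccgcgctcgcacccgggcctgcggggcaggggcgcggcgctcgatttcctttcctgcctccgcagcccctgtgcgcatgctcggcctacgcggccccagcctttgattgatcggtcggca
Ecm1: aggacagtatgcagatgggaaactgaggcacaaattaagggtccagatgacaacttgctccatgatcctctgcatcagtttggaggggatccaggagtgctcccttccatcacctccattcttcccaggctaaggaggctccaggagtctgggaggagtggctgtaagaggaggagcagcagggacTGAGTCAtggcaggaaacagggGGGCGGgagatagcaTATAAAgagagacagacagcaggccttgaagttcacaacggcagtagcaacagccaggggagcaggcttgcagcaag
Sdc1: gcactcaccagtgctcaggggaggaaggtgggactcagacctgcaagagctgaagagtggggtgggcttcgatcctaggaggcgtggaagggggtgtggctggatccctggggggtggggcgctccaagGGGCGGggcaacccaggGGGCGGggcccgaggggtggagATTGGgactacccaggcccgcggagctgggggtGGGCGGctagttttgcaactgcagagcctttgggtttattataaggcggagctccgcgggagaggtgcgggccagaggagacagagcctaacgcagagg
Gpnmb: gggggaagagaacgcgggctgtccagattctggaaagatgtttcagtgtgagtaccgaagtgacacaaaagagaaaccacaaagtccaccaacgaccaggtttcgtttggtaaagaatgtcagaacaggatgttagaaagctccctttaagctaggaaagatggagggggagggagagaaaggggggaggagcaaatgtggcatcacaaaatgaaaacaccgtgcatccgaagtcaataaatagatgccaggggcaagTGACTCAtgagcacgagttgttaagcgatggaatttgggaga
Among these, TGANTCA was found in Ecm1 and Gpnmb, TATAAA in Ecm1, CCAAT, read on the opposite strand, in Sdc1, and GGGCGG in Tram1l1, Ecm1 and, at 3 places, Sdc1. Of the 72 called genes, 48 had a promoter in the RefSeq table. Over the 38 lower genes with a promoter, TATAAA was present in 13.2%, CCAAT in 23.7%, TGANTCA in 5.26% and GGGCGG in 55.3%. Over the 11941 tested genes with a promoter, the same motifs were present in 7.45%, 38.1%, 5.06% and 61.9%. The CArG box, the motif of serum response factor, was sought in the same windows as CCWWWWWWGG, where W is A or T. This strict spelling was found in 0 of the 38 and in 1.28% of the 11941. Spellings that differ by a letter, such as ccctatatgg in the window of Acta2, were not counted, so CArG-like elements may be present. Such matches are matches of letters and say nothing of binding.

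The labels were checked with genes that separate the transgenic lines. Tram1l1, a paralog of the translocation-associated membrane protein of the endoplasmic reticulum, had 10.9, 8.85 and 11 CPM in hIAPP_hCAST 1, 2 and 3, against 1.78, 1.81 and 1.39 CPM in hIAPP 1, 2 and 3. All 3 hIAPP_hCAST libraries lay well above all 3 hIAPP libraries (log2 fold change 2.63 ± 0.153 SE, adjusted p = 8.24e-08). In raw counts this was 1740 against 253, or 6.26 times as many after scaling for depth (95% counting limits 5.48 and 7.17). H2-Ea-ps, a class II gene of the major histocompatibility complex that GENCODE lists as polymorphic pseudogene, had 98.7, 52.4 and 117 CPM in hIAPP_hCAST, against 0.586, 0.0646 and 0.148 CPM in hIAPP (log2 fold change 8.34 ± 0.447, adjusted p = 4e-06). Its adjusted p was 0.0733 with the 6 compared libraries alone and 0.0785 with a term for the range of the title numbers added to that fit. The transcript 1700006A11Rik had 82, 66 and 100 counts in hIAPP_hCAST and 0, 0 and 0 in hIAPP, which makes it at least 75.2-fold higher when hIAPP is set to 3 counts over its 3 libraries. The lower counting limit of that ratio was 60.7, and the adjusted p was 8.24e-05. Counting intervals cover counting error only.

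These 3 genes were picked from earlier results on hCAST against WT, whose libraries are not those of the present comparison. In hCAST, Tram1l1 had 10.7, 9.24 and 9.29 CPM, against 1.87, 2.63 and 1.93 CPM in WT. H2-Ea-ps had 52.3, 48.8 and 47.2 CPM in hCAST, against 0.473, 0.438 and 0.540 CPM in WT. The transcript 1700006A11Rik had 68, 84 and 73 counts in hCAST and 0, 0 and 0 in WT. Separation of hCAST from WT followed from how the 3 genes were picked. Only the separation of hIAPP_hCAST from hIAPP, which all 3 genes gave, is a check of the labels. Tram1l1 (chromosome 3, 124320855 to 124324743, plus strand, GRCm38, GENCODE M21) and 1700006A11Rik (chromosome 3, 124400989 to 124426040, minus strand) lie 76245 bases apart, and H2-Ea-ps lies on chromosome 17 at 34341959 to 34344645. Of 14 other tested genes within 2000000 bases of Tram1l1, 0 were called, with log2 fold changes of -0.45 to 0.36 (smallest adjusted p = 0.355). Of 151 within that distance of H2-Ea-ps, 2 were called, both lower, where 0.375% of all tested genes were called lower: Adamts10, a secreted metalloprotease-like protein, at -0.69, and Ddah2, a dimethylarginine hydrolase, at -0.67. Line, litter and insertion site cannot be told apart from the calpastatin transgene with these groups. Strand was not stated for the counting, so counts of genes that overlap another gene are uncertain.

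The genes that mark the human IAPP line, which both groups carry, did not pass. Sema5a, a semaphorin of axon guidance, had 570, 526 and 613 CPM in hIAPP_hCAST, against 538, 527 and 530 CPM in hIAPP (log2 fold change 0.10 ± 0.110, adjusted p = 0.820). Snhg18, a long noncoding RNA next to it, differed by 0.14 ± 0.0954 (adjusted p = 0.665), and Osbpl1a, an oxysterol-binding protein gene, by 0.21 ± 0.108 (adjusted p = 0.489). Mouse Cast, which is the endogenous gene, had 21.5, 21.0 and 22.2 CPM in hIAPP_hCAST, against 19.6, 19.9 and 19.3 CPM in hIAPP. The groups did not overlap, yet the difference of 0.14 ± 0.0694 did not pass (adjusted p = 0.486). Counts on mouse Cast do not measure the human transgene as such.

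**Figure D1:**
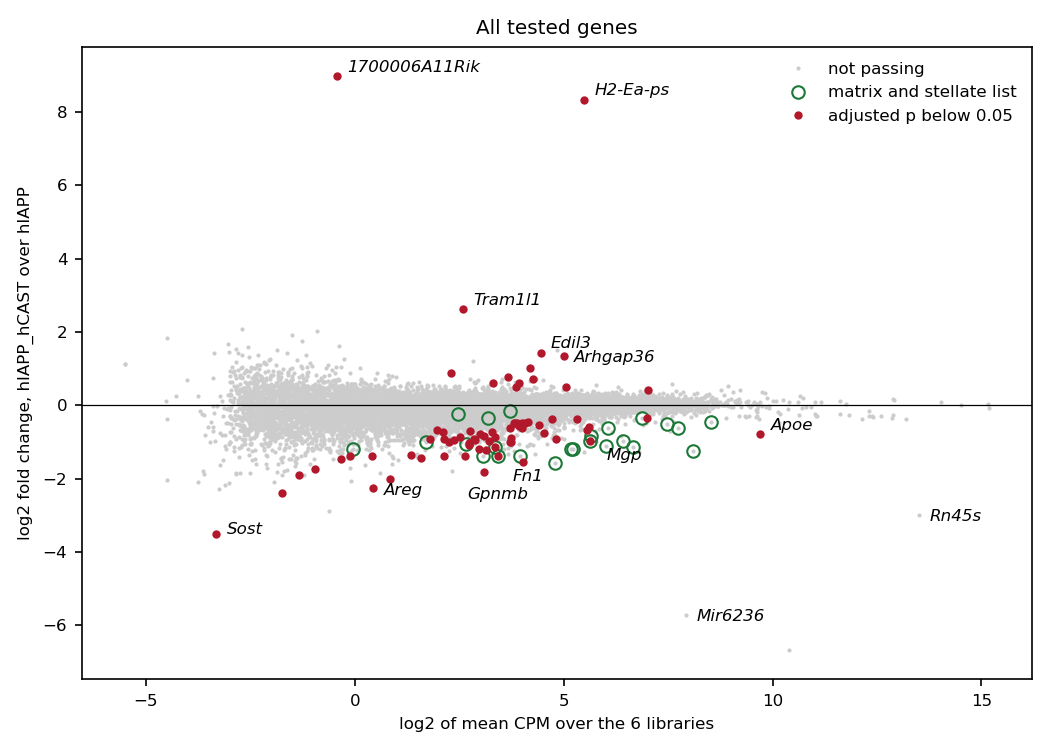
Log2 fold change of hIAPP_hCAST over hIAPP (vertical axis) against the log2 of mean CPM over the 6 libraries (horizontal axis) for the 15460 tested genes, with the 72 called genes as filled red points and the matrix and stellate genes ringed. Most called genes lie below 0, and the 3 genes marking the calpastatin line lie highest.

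Matrix and stellate-cell genes gave the largest downward median of the 30 lists examined. All 24 tested members had a log2 fold change below 0, where 49.4% of all tested genes did. The list median was -1.02, against 0 over all tested genes, and members ranged from -1.56 to -0.16. Of the 24, 3 fell, 0 rose and 21 did not pass, with 0.375% of all tested genes called lower. In 21 of the 24 (87.5%) the libraries of the groups did not overlap, against 15.9% of all tested genes, and 8.69% of all tested genes were without overlap and lower in hIAPP_hCAST. The list was written with the rise of these genes in hIAPP over WT already known.

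Fn1, which encodes fibronectin, had 7.16, 6.83 and 4.03 CPM in hIAPP_hCAST 1, 2 and 3, against 16.3, 16.5 and 13.8 CPM in hIAPP 1, 2 and 3. Every hIAPP_hCAST library was below every hIAPP library (log2 fold change -1.37 ± 0.216, adjusted p = 0.0107). Mgp, the matrix Gla protein that inhibits calcification, had 39.2, 34.8 and 25.2 CPM in hIAPP_hCAST, against 73.3, 63.6 and 58.3 CPM in hIAPP (-0.98 ± 0.129, adjusted p = 0.00242). Acta2, smooth muscle actin of activated stellate and mural cells, had 8.03, 5.56 and 5.53 CPM in hIAPP_hCAST, against 17.8, 11.1 and 12.7 CPM in hIAPP (-1.13 ± 0.221, adjusted p = 0.0407). Again the groups did not overlap for either gene, although Acta2 lost the call in all but 1 of the fits that left out 1 library. Fn1 kept its call in 4 of these 6 fits, and Mgp in all 6. On the per-length scale of the authors' FPKM, Mgp averaged 80.5 in hIAPP_hCAST and 154 in hIAPP, and Fn1 averaged 1.04 in hIAPP_hCAST and 2.59 in hIAPP.

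The fibrillar collagens had larger fold changes and a larger spread. Col1a1, a chain of type I collagen, had 17.2, 19.9 and 4.81 CPM in hIAPP_hCAST, against 45.9, 45.9 and 31.4 CPM in hIAPP, and its log2 fold change of -1.56 ± 0.429 did not pass (adjusted p = 0.163). Col5a1, a type V chain, had 9.69, 11.2 and 4.92 CPM in hIAPP_hCAST, against 23.2, 23.7 and 20.3 CPM in hIAPP (-1.39 ± 0.293, adjusted p = 0.0613). Pdgfrb, the platelet-derived growth factor receptor of pericytes, had 63.1, 54.4 and 41.4 CPM in hIAPP_hCAST, against 85.6, 73.6 and 85.0 CPM in hIAPP (-0.62 ± 0.141, adjusted p = 0.0646). The groups did not overlap for any of these, and hIAPP_hCAST 3 was the lowest library for each. Col1a1 and Pdgfrb were picked for naming after their values were seen.

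The level of the list, as the mean of log2(CPM + 0.5), was 4.68, 4.67 and 3.78 in hIAPP_hCAST 1, 2 and 3, against 5.46, 5.31 and 5.20 in hIAPP. Within hIAPP_hCAST, replicate 3 was the lowest library for 22 of the 24 members (91.7%) and for 39.3% of all tested genes. Without it the list median was -0.70 and 4 members were called lower. The acinar list, whose members are made by other cells, had a level of 8.49, 9.49 and 6.09 in hIAPP_hCAST, against 8.50, 9.44 and 8.46 in hIAPP. Its median over 31 members was -0.29 with 0 called, and 0.23 without hIAPP_hCAST 3. With the acinar level as a term in a fit of the 6 libraries, the matrix median was -0.89 and 2 members were called lower. In that fit Fn1 kept its call at -1.22 (adjusted p = 0.00994), while Mgp at -0.88 (adjusted p = 0.0528) and Acta2 at -1.12 (adjusted p = 0.144) lost theirs. Of the matrix genes described next, Loxl1 (-1.25, adjusted p = 0.0147) and Cilp (-1.33, adjusted p = 0.00673) kept their calls with that term, and Col6a5 (-1.19, adjusted p = 0.0552), Mfap4 (-1.67, adjusted p = 0.0528) and Htra3 (-1.24, adjusted p = 0.0695) lost theirs. In bulk islets, fewer stellate cells and less RNA per cell cannot be told apart, and the same holds for the other cell types below.

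Further matrix genes were among the 12 largest falls. Loxl1, a lysyl oxidase that cross-links elastin and collagen, had 3.24, 4.51 and 2.59 CPM in hIAPP_hCAST, against 9.63, 9.48 and 7.97 CPM in hIAPP (-1.39 ± 0.171, adjusted p = 0.00125). It kept its call in each of the 6 fits that left out 1 library, whereas Cilp and Col6a5, described next, kept theirs in 4. Cilp, a secreted cartilage and fibroblast matrix protein, had 8.75, 11.6 and 4.72 CPM in hIAPP_hCAST, against 26.3, 26.1 and 19.5 CPM in hIAPP (-1.53 ± 0.233, adjusted p = 0.0119). Col6a5, a type VI collagen chain, had 3.14, 2.90 and 1.28 CPM in hIAPP_hCAST, against 6.93, 6.07 and 5.79 CPM in hIAPP (-1.37 ± 0.230, adjusted p = 0.0127). These 3 genes were lower in every hIAPP_hCAST library than in any hIAPP library, and Loxl1 was the most even of the 3 within hIAPP_hCAST.

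Lower-count genes of the same kind also fell. Mfap4, a microfibril-associated protein, had 0.795, 1.10 and 0.249 CPM in hIAPP_hCAST, against 2.87, 4.07 and 1.61 CPM in hIAPP (-2.01 ± 0.406, adjusted p = 0.0442). Htra3, a secreted serine protease, fell by 1.43 on the log2 scale, and Mrc2, an endocytic collagen receptor, fell by 1.35. Of the 6 fits that left out 1 library, Mfap4 kept its call in 3, and Htra3 and Mrc2 in 2 each. Tcf21, a transcription factor of mesenchymal cells, fell by 1.45 at 0.492, 0.348 and 0.421 CPM in hIAPP_hCAST, against 1.10, 1.14 and 1.22 CPM in hIAPP. Tcf21 had even values within each group but passed in 0 of the 6 fits that left out 1 library, where its log2 fold change ran from -1.57 to -1.34.

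Matrix genes outside the list fell as well. Ecm1 and Sdc1 were named by rule, and the other genes of this paragraph were named after their values were seen. Cygb, a globin found in stellate cells, had 9.75, 9.87 and 7.29 CPM in hIAPP_hCAST, against 17.5, 16.3 and 19.6 CPM in hIAPP (-0.99 ± 0.140, adjusted p = 0.00388). Crispld2, a secreted protein of mesenchymal cells, fell by 1.20 ± 0.185 (adjusted p = 0.00888), and Adamts2, a procollagen peptidase, by 1.23 ± 0.230 (adjusted p = 0.0336). Spon1, Col8a1, Smoc1 and Timp2, all of them secreted matrix proteins or regulators, had log2 fold changes of -1.0, -0.98, -0.87 and -0.38. Ecm1, a secreted matrix glycoprotein whose promoter is shown above, had 2.78, 3.85 and 2.51 CPM in hIAPP_hCAST, against 5.42, 5.77 and 5.97 CPM in hIAPP (-0.91 ± 0.167, adjusted p = 0.0197). Sdc1, the cell-surface heparan sulfate proteoglycan syndecan-1, had 5.66, 6.62 and 5.09 CPM in hIAPP_hCAST, against 9.67, 9.89 and 10.5 CPM in hIAPP (-0.79 ± 0.125, adjusted p = 0.00959). Neither gene's groups overlapped. Sdc1 kept its call in each fit that left out 1 library, and Ecm1 in 3 of these 6 fits. With the acinar level as a term in the fit of the 6 libraries, Sdc1 (adjusted p = 0.0526) and Ecm1 (adjusted p = 0.0829) lost their calls.

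**Figure D2:**
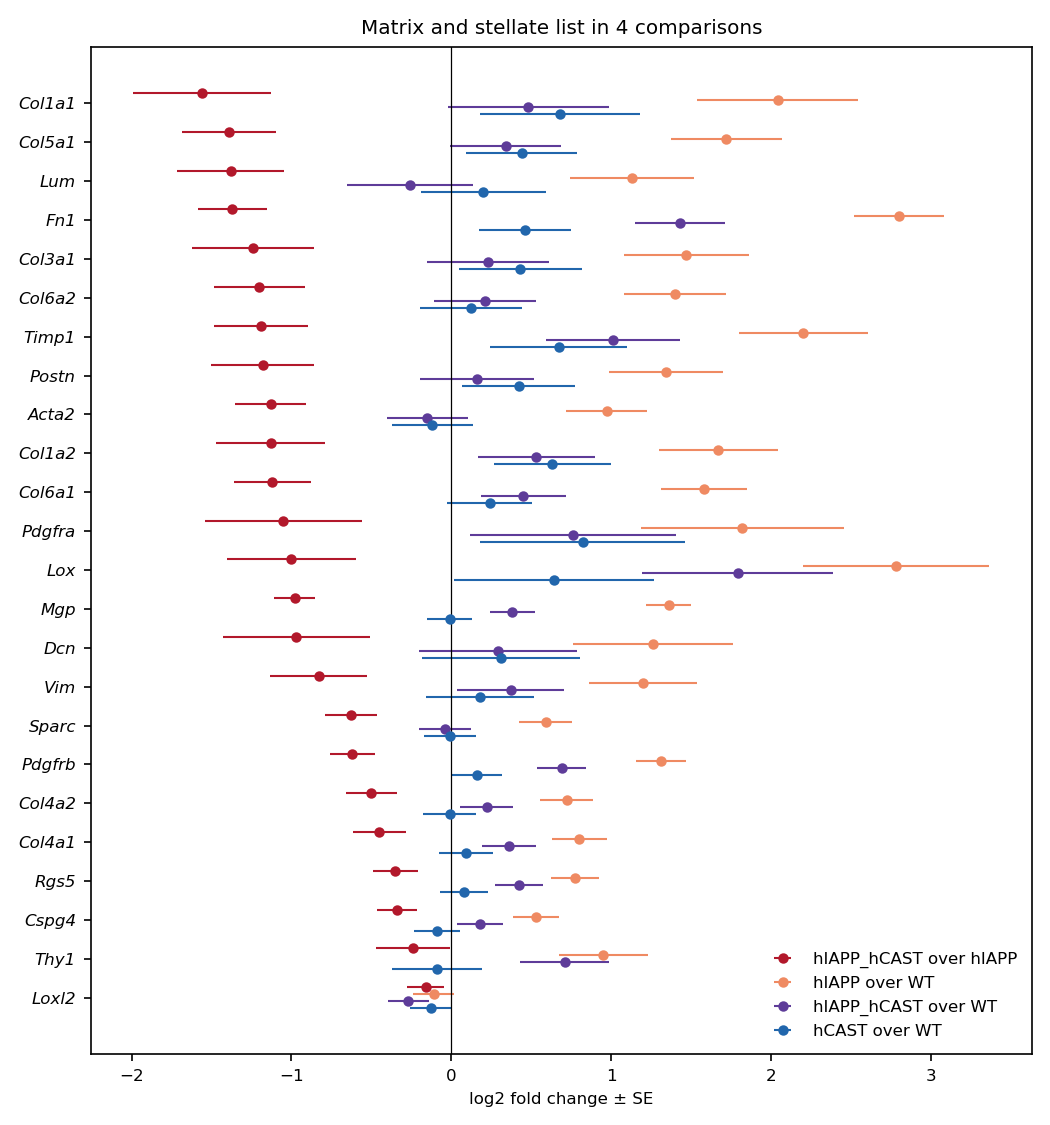
Log2 fold change ± SE of the 24 matrix and stellate genes (rows) in hIAPP_hCAST over hIAPP, hIAPP over WT, hIAPP_hCAST over WT and hCAST over WT. All 24 lie below 0 in hIAPP_hCAST over hIAPP; the first 2 comparisons share the hIAPP libraries, and points of opposite sign are therefore not independent of each other.

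Tagln, the smooth muscle protein transgelin, had 5.13, 3.89 and 4.11 CPM in hIAPP_hCAST, against 10.2, 8.40 and 8.16 CPM in hIAPP (-1.03 ± 0.179, adjusted p = 0.0163). Notch3, the Notch receptor of pericytes and smooth muscle, had 40, 37.6 and 31.1 CPM in hIAPP_hCAST, against 57.7, 52.4 and 64.3 CPM in hIAPP (-0.68 ± 0.136, adjusted p = 0.0400), and Heyl, a transcriptional repressor downstream of Notch, differed by -0.95 ± 0.195 (adjusted p = 0.0415). Each of the 3 was lower in every hIAPP_hCAST library. Lrrc32, which tethers latent TGF-beta at the cell surface, and Pmepa1, a TGF-beta-induced regulator of that pathway, had log2 fold changes of -0.94 and -0.53. These 5 genes were named after their values were seen.

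Of 13 tested endothelial genes, 1 fell, 0 rose and 12 did not pass. The list median was -0.36, all 13 members lay below 0, and in 61.5% the groups did not overlap. Over all tested genes, 0.375% were called lower, 49.4% lay below 0 and 15.9% did not overlap. Eng, endoglin, a TGF-beta co-receptor of endothelial cells, had 19.6, 17.4 and 14.1 CPM in hIAPP_hCAST, against 27.8, 32.7 and 26.2 CPM in hIAPP (-0.76 ± 0.115, adjusted p = 0.00726). Plvap, a protein of fenestrated capillaries, differed by -0.36 ± 0.0906 (adjusted p = 0.0870) and Tie1, an endothelial receptor, by -0.39 ± 0.103 (adjusted p = 0.108), neither of which passed. Sox7, an endothelial transcription factor outside the list, had 0.530, 0.484 and 0.483 CPM in hIAPP_hCAST, against 1.38, 1.59 and 0.943 CPM in hIAPP (-1.38 ± 0.290, adjusted p = 0.0443), and it kept its call in 1 of the 6 fits that left out 1 library. The level of the endothelial list was 4.55, 4.49 and 4.06 in hIAPP_hCAST, against 4.94, 4.75 and 4.75 in hIAPP, so that replicate 3 was again the lowest. With the acinar level as a term in the fit of the 6 libraries, Eng kept its call (adjusted p = 0.0498) and Sox7 lost its call (adjusted p = 0.15). Of 9 Schwann and glial genes, all lay below 0 with a median of -0.64, and 0 were called.

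Macrophage genes lay mostly below 0 but few passed. Of 22 tested macrophage genes, 1 fell, 0 rose and 21 did not pass, with a median of -0.60 and 21 members below 0. Among all tested genes, 0.375% were called lower and 49.4% lay below 0. Ms4a7, a membrane protein of tissue macrophages, had 7.37, 4.97 and 5.95 CPM in hIAPP_hCAST, against 11.5, 11 and 10.2 CPM in hIAPP (-0.84 ± 0.154, adjusted p = 0.0197). Lyz2, the lysozyme of myeloid cells, had 99, 55.7 and 42.2 CPM in hIAPP_hCAST, against 166, 176 and 129 CPM in hIAPP, and did not pass (-1.26 ± 0.248, adjusted p = 0.0543). C1qb, a complement C1q chain, gave -0.71 ± 0.158 (adjusted p = 0.0543), and Laptm5, a lysosomal membrane protein of blood cells, -0.91 ± 0.212 (adjusted p = 0.0646). Ms4a7 kept its call in 3 of the 6 fits that left out 1 library. It lost the call with the acinar level as a term in the fit of the 6 libraries (adjusted p = 0.0758). The groups did not overlap for Ms4a7, Lyz2, C1qb or Laptm5, and non-overlap held for 22.7% of the list, against 15.9% of all tested genes.

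Lipid-associated macrophage genes, which mark macrophages loaded with lipid or lysosomal cargo, gave 2 falling of 15, 0 rising and 13 not passing, with a median of -0.78. The groups did not overlap in 33.3% of the list, against 15.9% of all tested genes, of which 0.375% were called lower. Gpnmb, a lysosomal glycoprotein of such cells, had 5.42, 4.28 and 1.73 CPM in hIAPP_hCAST, against 10.5, 18.2 and 11.3 CPM in hIAPP (-1.81 ± 0.355, adjusted p = 0.0442). Apoe, the lipid carrier apolipoprotein E, had 763, 621 and 457 CPM in hIAPP_hCAST, against 1050, 1160 and 970 CPM in hIAPP (-0.79 ± 0.153, adjusted p = 0.0361). Neither gene's groups overlapped, and both were lowest in hIAPP_hCAST 3. Each kept its call in 2 of the 6 fits that left out 1 library. With the acinar level as a term in the fit of the 6 libraries, Gpnmb (adjusted p = 0.0528) and Apoe (adjusted p = 0.0877) lost their calls. Atp6v0d2, a proton pump subunit, gave -1.84 ± 0.464 (adjusted p = 0.0881), and Itgax, the integrin CD11c, -1.05 ± 0.283 (adjusted p = 0.121), both not passing. Acp5, a tartrate-resistant acid phosphatase of macrophages and osteoclasts, and Axl, a receptor kinase used in clearance of dying cells, were named after their values were seen. Acp5 fell by 1.08 ± 0.214 (adjusted p = 0.0352), and Axl fell by 0.58 ± 0.0904 (adjusted p = 0.00942).

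The macrophage list level was 3.45, 3.05 and 2.77 in hIAPP_hCAST 1, 2 and 3, against 3.67, 3.82 and 3.37 in hIAPP, so that hIAPP_hCAST 1 lay within the hIAPP range. Without hIAPP_hCAST 3 the list median was -0.41, and that of the lipid-associated list -0.46. The macrophage list held 0.0438% to 0.0695% of the counts outside ribosomal-rich genes in hIAPP_hCAST and 0.0721% to 0.0928% in hIAPP, with 0 of its 22 members at 0 in any of the 6 libraries. Replicate 3 of hIAPP_hCAST was the lowest of its group for 20 of the 22 macrophage and 14 of the 15 lipid-associated genes.

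**Figure D3:**
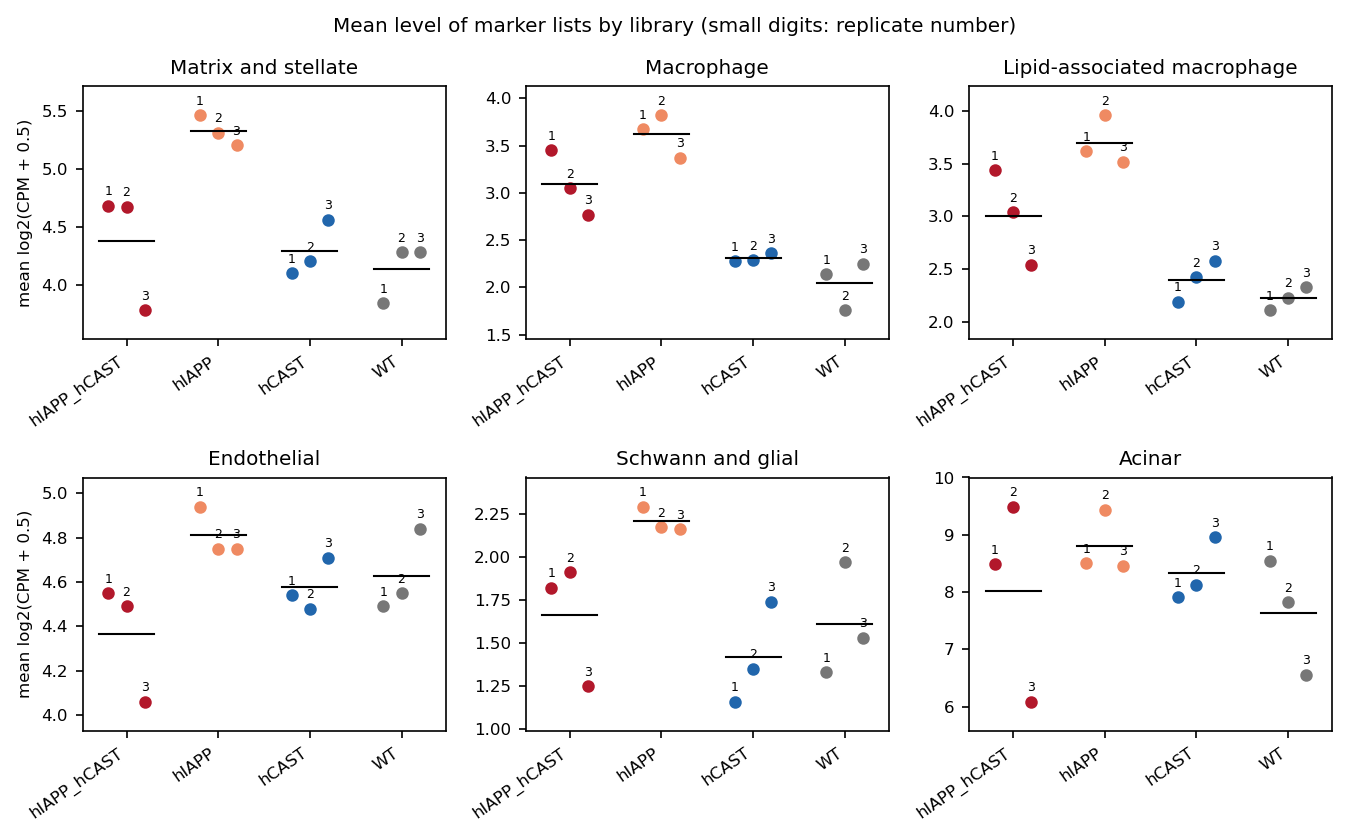
Mean log2(CPM + 0.5) of 6 marker lists (panels) in each library of hIAPP_hCAST, hIAPP, hCAST and WT, with lines at group means and small digits for the replicate number. Replicate 3 of hIAPP_hCAST is the lowest of its group in every panel, at 3.78 for matrix, 2.77 for macrophage and 6.09 for acinar genes.

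Of 16 tested cytokine, chemokine and NF-kB genes, 1 fell, 0 rose and 15 did not pass (median -0.16, and 0.06 without hIAPP_hCAST 3). In this list 10 members lay below 0, and in 25% the groups did not overlap. Among all tested genes, 0.375% were called lower, 49.4% lay below 0 and 15.9% did not overlap. Cxcl12, a chemokine of stromal cells, had 22.8, 20.1 and 15.9 CPM in hIAPP_hCAST, against 37.1, 34.6 and 39.7 CPM in hIAPP (-0.92 ± 0.144, adjusted p = 0.0107). It was lower in every hIAPP_hCAST library and kept its call in each fit that left out 1 library. Areg, the EGF-receptor ligand amphiregulin, had 0.625, 0.523 and 0.249 CPM in hIAPP_hCAST, against 2.06, 2.46 and 2.15 CPM in hIAPP (-2.26 ± 0.414, adjusted p = 0.0197), the largest fall among called genes with at least 1 CPM in the higher group. Tmem45a, a membrane protein, fell by 1.39 ± 0.225 (adjusted p = 0.0107). Areg kept its call in 3 of the 6 fits that left out 1 library, and Tmem45a in 4. Tnfrsf1a, a receptor for tumour necrosis factor named after its value was seen, fell by 0.49 ± 0.0983 (adjusted p = 0.0380).

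Outside the 3 line genes, 11 genes were higher in hIAPP_hCAST, where 0.0906% of all tested genes were called higher. Edil3, a secreted protein that binds integrins, had 41.6, 28.7 and 25.3 CPM in hIAPP_hCAST 1, 2 and 3, against 11.8, 13.9 and 9.40 CPM in hIAPP 1, 2 and 3 (1.44 ± 0.177, adjusted p = 0.00211). Arhgap36, an activator of hedgehog signalling, had 44.7, 56.1 and 37.2 CPM in hIAPP_hCAST, against 18.1, 22.6 and 13.6 CPM in hIAPP (1.35 ± 0.209, adjusted p = 0.0149). Cdon, a cell-surface co-receptor for hedgehog ligands, had 39.7, 38.9 and 37.8 CPM in hIAPP_hCAST, against 27.3, 28.2 and 27.4 CPM in hIAPP (0.49 ± 0.0640, adjusted p = 0.00211). The groups were far apart for each, and Cdon varied least within a group.

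Rapgef4, the cAMP sensor Epac2 of beta cells, had 160, 152 and 134 CPM in hIAPP_hCAST, against 117, 113 and 106 CPM in hIAPP (0.41 ± 0.0722, adjusted p = 0.0163). Dpp10, an inactive peptidase that associates with potassium channels, had 29.0, 21.3 and 21.9 CPM in hIAPP_hCAST, against 15.8, 14.7 and 13.5 CPM in hIAPP (0.71 ± 0.123, adjusted p = 0.0149). Rit2, a small GTPase of neurons, rose by 0.62 ± 0.113 (adjusted p = 0.0197) and Pcdh15, a protocadherin, by 0.51 ± 0.0991 (adjusted p = 0.0318). Lancl3, a member of the LanC-like family, rose by 0.78 ± 0.115 (adjusted p = 0.00603), Clip4, a CAP-Gly linker protein, by 0.87 ± 0.155 (adjusted p = 0.0163), and Plcxd3, a phospholipase C-like protein, by 0.62 ± 0.111 (adjusted p = 0.0179). In all 11 the libraries of the groups did not overlap, since the naming rule required it, and Edil3, Lancl3 and Cdon kept their call in each of the 6 fits that left out 1 library. Arhgap36 kept it in 5 of these fits, Cd79a, Dpp10, Plcxd3 and Rit2 in 4, Clip4 and Rapgef4 in 3, and Pcdh15 in 2. With the acinar level as a term in the fit of the 6 libraries, Edil3 lost its call (adjusted p = 0.0557). Dpp10, Plcxd3, Rit2 and Pcdh15 also lost theirs, and Arhgap36, Cd79a, Cdon, Clip4, Lancl3 and Rapgef4 kept theirs.

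Cd79a, a signalling chain of the B-cell receptor, was the remaining rise. It had 24.9, 24.0 and 24.3 CPM in hIAPP_hCAST, against 14.3, 10.6 and 11.1 CPM in hIAPP (1.02 ± 0.163, adjusted p = 0.0108). Other B-cell genes of the lymphocyte list were near 0: Ms4a1 had 3 counts over the hIAPP_hCAST libraries and 1 over hIAPP, and Cd79b had 11 over each group. Cd79a itself had 4112 counts over hIAPP_hCAST and 1851 over hIAPP. Of the 14 lymphocyte genes in the table, 11 stayed below 10 counts in each of the 6 libraries. In hCAST and WT islets, Cd79a had 7.94 to 13.6 CPM and 9.41 to 14.0 CPM.

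**Figure D4:**
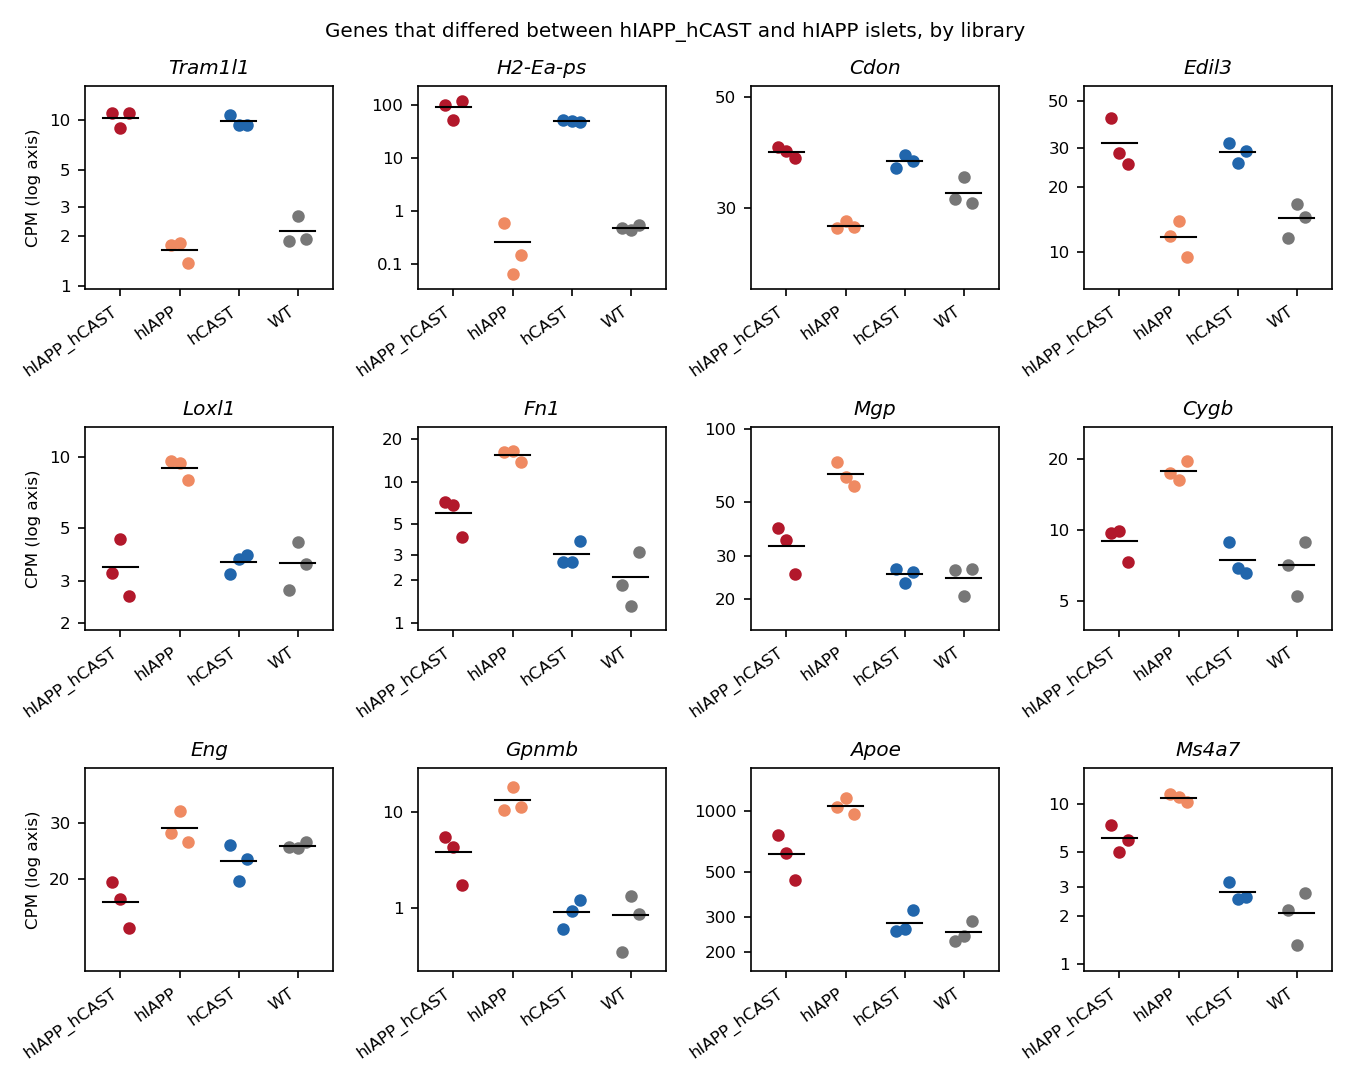
CPM on a log axis of 12 called genes (panels) in each library of hIAPP_hCAST, hIAPP, hCAST and WT, with lines at group means. Tram1l1, H2-Ea-ps, Cdon and Edil3 are higher in hIAPP_hCAST than in hIAPP, and the other 8 are lower, with no overlap between these 2 groups in any panel.

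The hormone genes did not pass. Ins2 had 38700, 32800 and 36700 CPM in hIAPP_hCAST, against 40300, 38000 and 35500 CPM in hIAPP (-0.07 ± 0.112, adjusted p = 0.878), and the groups overlapped. Ins1 differed by 0.04 ± 0.134 (adjusted p = 0.957). Mouse Iapp, whose counts do not measure the human transgene as such, had 22700, 23300 and 25000 CPM in hIAPP_hCAST, against 23100, 23500 and 23300 CPM in hIAPP (0.02 ± 0.173, adjusted p = 0.985). Gcg (glucagon), Sst (somatostatin) and Ppy (pancreatic polypeptide) differed by 0.08 ± 0.105, -0.09 ± 0.102 and 0.21 ± 0.309, with adjusted p of 0.861, 0.814 and 0.874. On the per-length scale, Ins2 averaged 94100 FPKM in hIAPP_hCAST and 94900 FPKM in hIAPP.

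Of 32 beta-cell identity genes, 0 were called in either direction. Their median was 0.09, 26 lay above 0, and they ranged from -0.07 to 0.43, a narrower span than that of the matrix list. Isl1, an islet transcription factor, had 101, 86.0 and 80.4 CPM in hIAPP_hCAST, against 75.7, 78.2 and 62.2 CPM in hIAPP (0.31 ± 0.101, adjusted p = 0.206). Rfx6, a factor of endocrine differentiation, gave 0.20 ± 0.0657 (adjusted p = 0.219), Gipr, an incretin receptor, 0.33 ± 0.135 (adjusted p = 0.353), and Slc30a8, the zinc transporter of insulin granules, 0.41 ± 0.170 (adjusted p = 0.355). None of the 4 passed. The 20 granule and hormone-processing genes had a median of 0.08 with 0 called, and in 30% the groups did not overlap. Among the 12 tested dedifferentiation and progenitor genes, 0 were called and 11 lay below 0 (median -0.32), and in 50% the groups did not overlap. Among all tested genes, 49.4% lay below 0 and 15.9% did not overlap. Aldh1a3, a retinal dehydrogenase linked to beta-cell dedifferentiation, had 27.3, 20.9 and 31.1 CPM in hIAPP_hCAST, against 45.3, 60.8 and 84.6 CPM in hIAPP. These libraries did not overlap, but the spread within hIAPP was wide and the log2 fold change of -1.26 ± 0.370 did not pass (adjusted p = 0.193).

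The calpain system showed 0 calls among 12 tested genes, with a median of -0.06 and a range of -0.55 to 0.14. Capn1, the catalytic subunit of mu-calpain, had 36.8, 37.6 and 36.3 CPM in hIAPP_hCAST, against 40.1, 38.7 and 37.3 CPM in hIAPP (-0.07 ± 0.0663, adjusted p = 0.779). Capn2, the catalytic subunit of m-calpain, had 56.8, 55.8 and 69.9 CPM in hIAPP_hCAST, against 66.0, 63.0 and 66.2 CPM in hIAPP (-0.10 ± 0.0953, adjusted p = 0.783). Capns1, their shared regulatory subunit, and Capn10, an atypical calpain, differed by -0.05 ± 0.0812 (adjusted p = 0.895) and 0.03 ± 0.0928 (adjusted p = 0.950). The 16 genes of known calpain substrates had a median of -0.03 with 0 called. Transcript counts carry no information on calpain activity.

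Lists of stress and housekeeping pathways held 0 called genes. Their medians were -0.09 for 24 genes of the unfolded protein response, -0.02 for 22 lysosome and autophagy genes, -0.04 for 18 proteasome genes, -0.01 for 14 heat shock genes, -0.09 for 16 p53 and apoptosis genes, -0.12 for 14 Nrf2 targets, -0.04 for 20 interferon-response genes and -0.17 for 25 cell-cycle genes. Trib3, a stress-induced pseudokinase, gave -0.73 ± 0.236 (adjusted p = 0.202), and B2m, the light chain of MHC class I, -0.41 ± 0.0972 (adjusted p = 0.0675). Metabolic lists were near 0 as well, at -0.02 for glycolysis, 0.01 for the nuclear respiratory chain and -0.08 for cholesterol synthesis. All 16 immediate early genes lay below 0 (median -0.36) with 0 called and 0 without overlap. Among all tested genes, 49.4% lay below 0 and 15.9% were without overlap. Fos, named after its values were seen, had 186, 324 and 224 CPM in hIAPP_hCAST, against 218, 150 and 436 CPM in hIAPP, so that the spread within a group exceeded the difference. The 11 tested genes of MHC class II had a median of -0.27, and the line gene H2-Ea-ps was the 1 called.

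**Figure D5:**
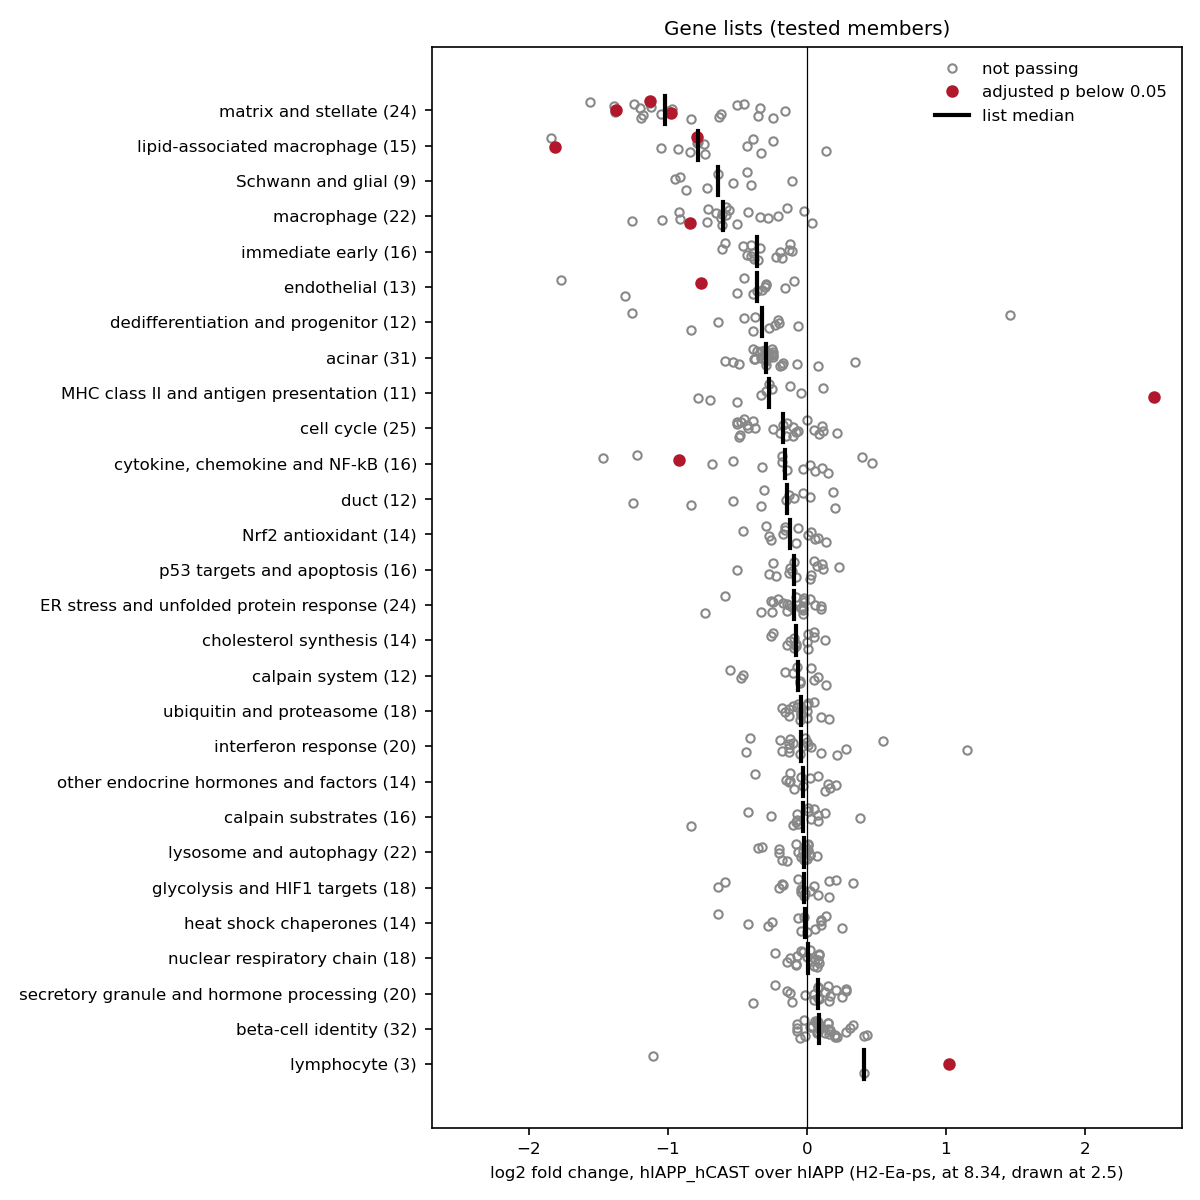
Log2 fold change of hIAPP_hCAST over hIAPP for the tested members of 28 gene lists (rows, number tested in brackets), with list medians as bars and called genes filled. The matrix list has the lowest median at -1.02 and the beta-cell identity list lies close to 0 at 0.09; H2-Ea-ps is drawn at the edge of the axis.

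Whether the calpastatin difference depended on human IAPP was tested as an interaction, the difference of hIAPP_hCAST over hIAPP minus that of hCAST over WT. In this test 0 of 15460 genes passed with edgeR, 1346 (8.71%) had an unadjusted p below 0.05, and DESeq2 called 50. The smallest p belonged to Sdc1, Loxl1 and Ecm1, none of which passed. Loxl1 differed by -1.39 between hIAPP_hCAST and hIAPP and by 0.18 between hCAST and WT, an interaction of -1.57 (adjusted p = 0.158). Sdc1 gave -0.79 and 0.42 in these comparisons (interaction -1.21, adjusted p = 0.158), and Ecm1 -0.91 and 0.50 (interaction -1.41, adjusted p = 0.243). By that test the differences described above are not shown to be particular to the human IAPP background. In hCAST over WT alone, 3 genes were called (0.0194%), the line genes, all of them higher.

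The comparison of hCAST with WT shares no library with hIAPP_hCAST and hIAPP. Of the 58 genes lower in hIAPP_hCAST, 23 (39.7%) lay below 0 in hCAST over WT, where 46.7% of all tested genes did, with a median of 0.07. Of the 14 higher genes, 12 (85.7%) lay above 0 there, against 51.0% of all tested genes, and 3 of them were the line genes chosen on that contrast. Edil3 had 31.7, 25.8 and 29.1 CPM in hCAST, against 11.6, 16.6 and 14.5 CPM in WT, and the groups did not overlap (1.11, adjusted p = 0.106, not passing). Its interaction was 0.34 (adjusted p = 0.747). Arhgap36 and Rit2 gave 0.86 (adjusted p = 0.512) and 0.56 (adjusted p = 0.328) in hCAST over WT, neither passing.

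The list medians of 4 comparisons are given side by side; hIAPP_hCAST over hIAPP and hIAPP over WT use the same hIAPP libraries. Matrix genes had medians of -1.02 in hIAPP_hCAST over hIAPP, 1.32 in hIAPP over WT, 0.36 in hIAPP_hCAST over WT and 0.19 in hCAST over WT. Called members numbered 3 lower, 20 higher, 2 higher and 0 in that order. Macrophage genes had medians of -0.60, 1.60, 1.0 and 0.12 in the same comparisons, with 1 lower, 20 higher, 14 higher and 0 called. Beta-cell identity genes had medians of 0.09, -0.42, -0.30 and -0.11, with 0, 18 lower, 7 lower and 0 called. Over all tested genes, 11.9% were called in hIAPP over WT (6.27% higher and 5.59% lower) and 3.48% in hIAPP_hCAST over WT (1.69% higher and 1.79% lower).

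By library, Loxl1 had 2.59 to 4.51 CPM in hIAPP_hCAST, 7.97 to 9.63 CPM in hIAPP, 7.99 to 8.57 CPM in rIAPP, 3.22 to 3.86 CPM in hCAST and 2.75 to 4.38 CPM in WT, so that hIAPP and rIAPP stood above the other groups. Apoe had 457 to 763 CPM in hIAPP_hCAST, 970 to 1160 CPM in hIAPP, 250 to 292 CPM in rIAPP, 255 to 324 CPM in hCAST and 228 to 285 CPM in WT, which puts hIAPP_hCAST between hIAPP and the groups without human IAPP. Eng had 14.1 to 19.6 CPM in hIAPP_hCAST, 26.2 to 32.7 CPM in hIAPP, 41 to 42.4 CPM in rIAPP, 19.8 to 25.6 CPM in hCAST and 25 to 26.1 CPM in WT, with hIAPP_hCAST lowest. WT libraries 2 and 3 were shallow outside ribosomal-rich genes, which held 9.40% to 94.3% of all WT counts.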

How the data were processed

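RNA of 15 islet libraries was measured by sequencing. Per the labels' protocols, islet RNA came from the RNeasy Mini Kit, and the kits named for library making are TruSeq, Ribo-Zero and NuGEN Ovation. The authors deposited a table of whole-number counts of reads with 24060 gene symbols, 2 of them repeats, and all 15 columns of counts were matched to libraries by title, with 0 columns unused. The authors also deposited FPKM values, used here for per-length levels and as an alternative. STAR and HTSeq, without versions, and the builds GRCm38 and mm10 are named per the submitters' processing notes. The sources used here give neither the annotation nor the strand setting.

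Counts were tested with edgeR 4.0.16 in R 4.3.3 (TMM, default filter by group, robust quasi-likelihood fit, group means over the 15 libraries), which left 15460 genes. The common biological coefficient of variation was 0.132. Benjamini-Hochberg adjustment ran over all tested genes, and a gene was called at an adjusted p below 0.05. The SE was taken as |log2 fold change| over root F. Alternatives used DESeq2 1.42.0 and limma 3.58.1. The test was checked on simulated counts. No replicates were duplicates of each other: counts of library pairs differed by more than sampling noise (chi-square per degree of freedom 31.4 to 465).

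The comparison and the 30 gene lists were chosen with earlier results of these data known. Genes were named by rule: the hormones, Cast, 4 calpain genes and the line genes always; the 12 largest called rises and falls that reach 1 CPM on average in the higher group without overlap of libraries, without predicted genes, pseudogenes and receptor segments; for each list described, up to 4 genes of smallest p; and, for the interaction, the 3 smallest p as not passing. Genes named outside the rule are marked as such. Positions are from GENCODE M21 (GRCm38).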

Additional observations from a re-analysis of the deposited data

How the results depend on the processing

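The 72 calls (14 higher, 58 lower) kept their sign in every alternative that gave a value, but their number depended on the setting. It was 285 with DESeq2 (52 higher, 233 lower), 114 with voom and sample weights (24 and 90), 116 without a filter on low counts (18 and 98), 216 at an adjusted p below 0.1 (32 and 184), 33 with the acinar level as a term in the 6 libraries (10 and 23), 30 without the 3 ribosomal-rich libraries WT 2, WT 3 and rIAPP 2 (12 and 18), 7 on log2(FPKM + 1) (4 and 3), 2 on log2(FPKM + 0.1) (1 and 1), and 2 with only the 6 compared libraries (Tram1l1 and 1700006A11Rik, both higher). In that last fit, 71 of the 72 genes had a value, and all 71 kept their sign at an unadjusted p below 0.05. Because the 72 were picked on the difference between these same libraries, this is no separate support. Leaving out 1 library gave 18 to 175 calls: 18 without hIAPP 2, 21 without hIAPP 1, 28 without hIAPP 3, 129 without hIAPP_hCAST 1, 175 without hIAPP_hCAST 2 and 79 without hIAPP_hCAST 3. A term for the range of the title numbers, added to the fit of the 6 libraries, gave 82 calls (18 and 64) in place of 2, and 41 were among the 72. In fits of all 15 libraries, DESeq2 size factors, a stricter CPM filter and leaving out the ribosomal-rich genes gave 74, 73 and 70 calls, of which 72, 69 and 69 were among the 72.

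The interaction count of 0 became 50 with DESeq2, 2 with voom, 17 on log2(FPKM + 1) and 7 on log2(FPKM + 0.1). On FPKM the median of all genes moved by -1.32 and -1.83. Leaving out 1 library gave 0 to 5 interaction calls: 4 without hIAPP_hCAST 1, 5 without hIAPP_hCAST 2, 1 without hIAPP_hCAST 3 and 2 without WT 3. The cause of these changes was not tested. Of the 34 called genes chosen by the rule, 13 to 30 kept their call when 1 library was left out. The lipid-associated macrophage median was -0.46 without hIAPP_hCAST 3, against -0.78. Depth limits genes under about 1 CPM, such as Sox7, Tcf21 and Mfap4 in hIAPP_hCAST.

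No paired analysis was possible because the labels give the groups no shared replicate number and do not say what the title numbers stand for. The term for their range separates the replicates numbered 3 from those numbered 1 and 2 in both groups, and pairs no libraries.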

Other observations

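Called genes were spread over the chromosomes. Chromosomes 11, 7 and 9 held 9 called genes each, of 1254, 1167 and 855 tested genes, so that the share of tested genes called was 1.05% on chromosome 9, against 0.466% overall. Of the 15460 tested genes, 14990 belonged to none of the 30 lists. Of the 58 lower genes, 50 belonged to none of them. These included, named after their values were seen, Galns, a lysosomal sulfatase, with 23.2, 21.9 and 24.0 CPM in hIAPP_hCAST, against 29.3, 31.3 and 28.9 CPM in hIAPP (log2 fold change -0.37 ± 0.0700, adjusted p = 0.0230). Rab3d, a GTPase of secretory vesicles, had 113, 109 and 115 CPM in hIAPP_hCAST, against 136, 143 and 147 CPM in hIAPP, and stood just inside the threshold (-0.34 ± 0.0726). Ephx1, an epoxide hydrolase, had 14.6, 15.4 and 14.9 CPM in hIAPP_hCAST, against 20.1, 21.0 and 20.3 CPM in hIAPP (-0.45 ± 0.0850, adjusted p = 0.0240). The groups were apart for all 3 genes, and hIAPP_hCAST 3 was not the lowest library of its group for any of them. Anks4b, an epithelial scaffold protein, had 11, 12.2 and 14.5 CPM in hIAPP_hCAST, against 18.8, 19.8 and 19.6 CPM in hIAPP (-0.63 ± 0.129, adjusted p = 0.0430), and hIAPP_hCAST 3 was the highest of its group for it.

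Over all 58 lower genes, hIAPP_hCAST 3 was the lowest of its group for 43 (74.1%) and the highest for 4 (6.90%), against 39.3% and 37.0% of all tested genes. The gene with the lowest log2 fold change of all, Lars2, one of the ribosomal-rich genes, gave -6.68 and did not pass (adjusted p = 0.326). The ribosomal share ran from 0.351% to 7.63% between hIAPP libraries.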
